A study of Mus musculus with 6 samples.

Results

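The PYHIN genes of the mouse, also called the Ifi200 family, were examined in the hearts of mice with chronic kidney disease (CKD) and of sham mice. The members were taken by symbol, as every measured gene whose name starts with Ifi20 or Ifi21 together with Mnda, Mndal and Aim2, which gave 9 of the 19505 genes measured. They are Aim2, Ifi214, Ifi213, Ifi209, Ifi208, Ifi207, Ifi204, Mndal and Ifi211, and no filter on low values was applied to them. The family was chosen from the difference between CKD and sham hearts, with the high level of Ifi207 in CKD known, so that difference is described for the members and not tested. The arrays came from 3 CKD mice and 3 sham mice, all Balb/c, with 1 Affymetrix Clariom S array of heart RNA per mouse. CKD mice had undergone 5/6 nephrectomy, in which part of the cortex of the right kidney was coagulated and the left kidney was removed 2 weeks later. Sham mice had the abdomen opened with both kidneys untouched. The methods describe the operated Balb/c mice as males aged 8 weeks at the first operation. They name several sets of operated animals, kept for different times and on different diets after surgery. The set behind these hearts is not given in the sources used here, so their age at collection and diet are not stated. Values are log2 levels after robust multiarray averaging, which puts all arrays on a common distribution. A difference of 1 is thus a change of 2-fold on the deposited scale. The deposited levels ran from 0.97 to 20, and how this scale follows the amount of RNA was not tested.

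PYHIN proteins are named for the pyrin domain at one end, which joins them to other pyrin proteins, and the HIN domain at the other end, which binds DNA. Several of them sense DNA in the cytosol or the nucleus. Aim2 builds an inflammasome with the adaptor Pycard and caspase 1, whereas p204, the product of Ifi204, can signal through STING to type I interferon. Many of the genes are themselves induced by interferon, and they are best known from myeloid and lymphoid cells. The cluster has expanded in the mouse and differs between inbred strains in gene content and sequence, while the annotation used here is that of C57BL/6J and not of Balb/c.

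Before the members, the arrays themselves need a short account. Cardiac muscle markers were bright on all arrays, with a mean log2 level over 12 genes of 16.8 to 17.1 in CKD hearts and 16.9 to 17.0 in sham hearts. The arrays differed in Y-linked genes. Eif2s3y had log2 levels of 4.02, 4.04 and 7.90 in CKD hearts, against 4.24, 1.24 and 1.26 in sham hearts, a spread within mice that the methods describe as males, and its part in any result was not tested. Atrial markers also differed, with 4 of 8 higher in CKD, none lower, and a mean level of 8.97 to 12.2 in CKD hearts against 6.66 to 9.51 in sham hearts. CKD replicate 3 was the highest, whereas sham replicate 1 (9.51) lay above CKD replicates 1 (8.97) and 2 (9.26). The part of atrial tissue in any result was not tested. A gene passed the limits, which are those the methods state, where limma's linear model over all genes gave p under 0.05 before adjustment and the fold was over 1.5. Of all genes, 6.32% passed them, 3.13% as higher in CKD and 3.19% as lower.

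The family fell into a bright and a dim set, where brightness is that of a probe set and does not rank amounts of transcript between genes. Ifi207, Ifi204, Ifi211 and Mndal were the bright members and had higher mean levels in CKD hearts, by 2.87, 1.97, 1.53 and 1.05 on the log2 scale. Brightness was taken over both groups, so a higher level in CKD counts toward it, and the 2 traits are not independent. In sham hearts alone the mean of Ifi207 was 7.76, nearer to Ifi208 (7.18) than to Ifi204 (9.22), Ifi211 (9.20) or Mndal (9.49). Ifi208, Ifi209, Ifi213 and Ifi214 were dimmer and had lower mean levels in CKD hearts, and Aim2 was close to even. Ifi207, Ifi204 and Ifi211 lay past the limits as higher and none of the 9 as lower, beside 3.13% and 3.19% of all genes, and nothing is read from this count because the contrast had chosen the family. The same 3 genes had every CKD array above every sham array, which held for 6.93% of all genes. No member had every CKD array below every sham array, which held for 6.71% of all genes. The median difference over the 9 members was 0.22, against 0.00 over all genes. It was set by Aim2, the middle gene, and came to −0.03 without sham replicate 1 and to 0.47 without sham replicate 2.

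**Figure D1:**
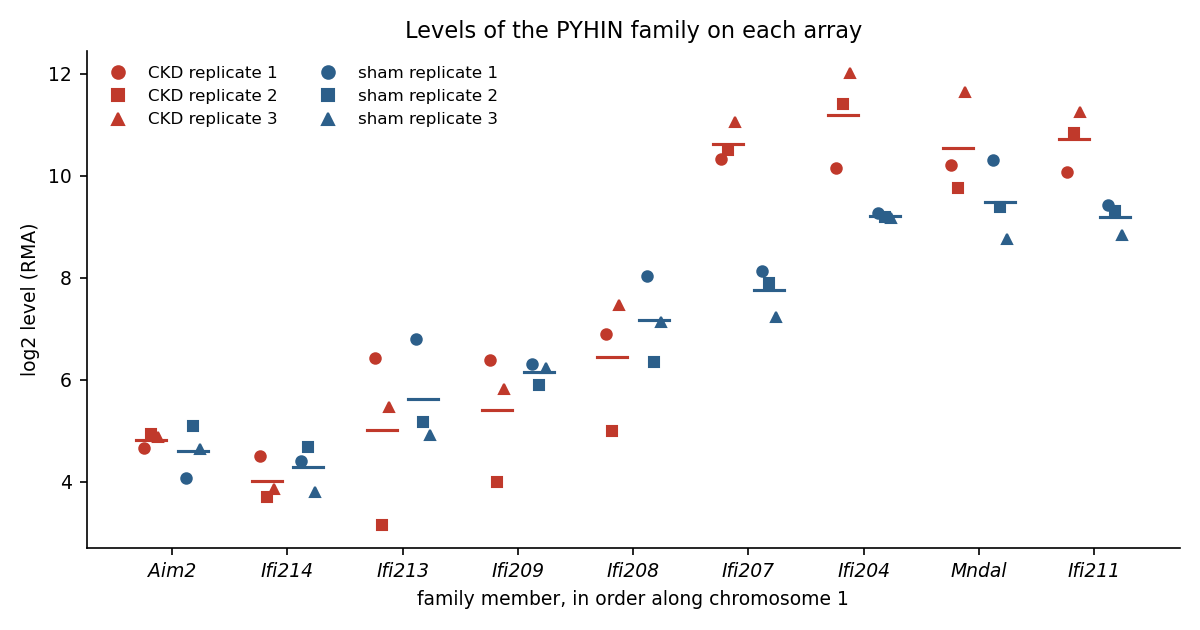
Log2 level of each family member (vertical axis) on each array, with CKD arrays in red at the left and sham arrays in blue at the right of each gene, the replicate number as the symbol and the group mean as a bar. The 3 CKD arrays lay above the 3 sham arrays for Ifi207, Ifi204 and Ifi211, and CKD replicate 2 was the lowest array for Ifi213, Ifi209, Ifi208 and Ifi214.

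Ifi207 had log2 levels of 10.33, 10.50 and 11.05 in CKD hearts, against 8.13, 7.90 and 7.24 in sham hearts. The lowest CKD heart thus stood more than 2 log2 units above the highest sham heart. The difference was 2.87 with a standard error of 0.29, which is 7.31-fold, and 11 of the 19505 genes had a larger one. Ifi207 (Entrez gene 226691) is a nuclear PYHIN protein of the mouse that has been linked to STING signalling in mouse cells. The spread was alike in both groups, at 0.38 in CKD and 0.46 in sham hearts (SD, n = 3 each).

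Ifi204 had log2 levels of 10.15, 11.40 and 12.01 in CKD hearts, against 9.27, 9.20 and 9.18 in sham hearts. The sham hearts were nearly the same and the CKD hearts were spread, with an SD of 0.95 in CKD and 0.05 in sham hearts (n = 3 each). The difference was 1.97 (standard error 0.40), or 3.92-fold. Besides sensing DNA, p204 takes part in the differentiation of muscle cells in culture and binds the retinoblastoma protein.

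Ifi211, listed under the earlier names Mnda and Ifi205b, had log2 levels of 10.07, 10.85 and 11.25 in CKD hearts, against 9.43, 9.31 and 8.85 in sham hearts. The order of the CKD hearts was that of Ifi204 and of Ifi207, with replicate 1 lowest and replicate 3 highest. Genes outside the family, such as Dbp and Abca6, also had this order. The difference was 1.53 (standard error 0.31), or 2.88-fold.

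Mndal, a nuclear member named after the human myeloid nuclear differentiation antigen, had log2 levels of 10.22, 9.76 and 11.64 in CKD hearts, against 10.31, 9.38 and 8.77 in sham hearts. The groups overlapped, since sham replicate 1 lay above CKD replicates 1 and 2. The difference of 1.05 had a standard error of 0.51 and was carried by CKD replicate 3. Without that array it was 0.50, and without CKD replicate 2 it was 1.44.

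The dimmer members shared another profile. Ifi208 had log2 levels of 6.90, 4.99 and 7.46 in CKD hearts, against 8.03, 6.36 and 7.14 in sham hearts. Ifi209, also called Pyhin1, had 6.38, 4.0 and 5.82 in CKD hearts, against 6.32, 5.90 and 6.24 in sham hearts. Ifi213 had 6.43, 3.15 and 5.46 in CKD hearts, against 6.80, 5.17 and 4.91 in sham hearts. In all of them CKD replicate 2 was the lowest of the 6 arrays while the remaining CKD arrays lay within or near the sham range. The differences were −0.73 for Ifi208 (standard error 0.62), −0.75 for Ifi209 (standard error 0.51) and −0.61 for Ifi213 (standard error 0.78). Without CKD replicate 2 they were 0.00, −0.05 and 0.32. Sham replicate 1 was the highest array for Ifi208 and Ifi213, and without it their differences were −0.30 and −0.03, so these lower means depended on single arrays of both groups. Ifi208 and Ifi213 carry the alternative names Pydc3 and Pydc4, given for proteins with a pyrin domain alone.

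Ifi214 and Aim2 had the dimmest probe sets of the family. Ifi214 had log2 levels of 4.50, 3.70 and 3.86 in CKD hearts, against 4.41, 4.69 and 3.80 in sham hearts. Aim2 had 4.67, 4.94 and 4.88 in CKD hearts, against 4.08, 5.09 and 4.65 in sham hearts. Both overlapped between the groups, and their mean levels stood at the 39.7 and 47.6 percentile of all genes. The difference was −0.28 for Ifi214 (standard error 0.29) and 0.22 for Aim2 (standard error 0.26), and Aim2 came to −0.04 without sham replicate 1.

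All 9 members lie in 1 cluster on chromosome 1, in the order Aim2, Ifi214, Ifi213, Ifi209, Ifi208, Ifi207, Ifi204, Mndal and Ifi211 in the RefSeq gene table. Of the 5 members with higher means in CKD, 4 were the last 4 in this order, and Aim2, with a difference of 0.22, was the first. The 4 with lower means lay between them, with differences that depended on single arrays. Of 14 family genes in the table, 5 were not analysed here, among them Ifi203, Ifi202b and Ifi205, which lie beyond Ifi211. Outside the family, 37 measured genes lie within 1 Mb of the cluster, 33 of them below the median level of all values, many of them olfactory receptor genes. Their median difference was −0.05, none passed the limits as higher and 1 passed as lower, beside 3.13% and 3.19% of all genes. This was Slamf9, a receptor of the SLAM family found on immune cells, with log2 levels of 6.41, 4.2 and 4.50 in CKD hearts, against 5.99, 6.94 and 6.83 in sham hearts (difference −1.55, standard error 0.53, adjusted p = 0.448 from limma). The call on Slamf9 was lost with the methods' t-test and on leaving out any 1 of sham replicates 2 and 3 and CKD replicates 2 and 3.

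**Figure D2:**
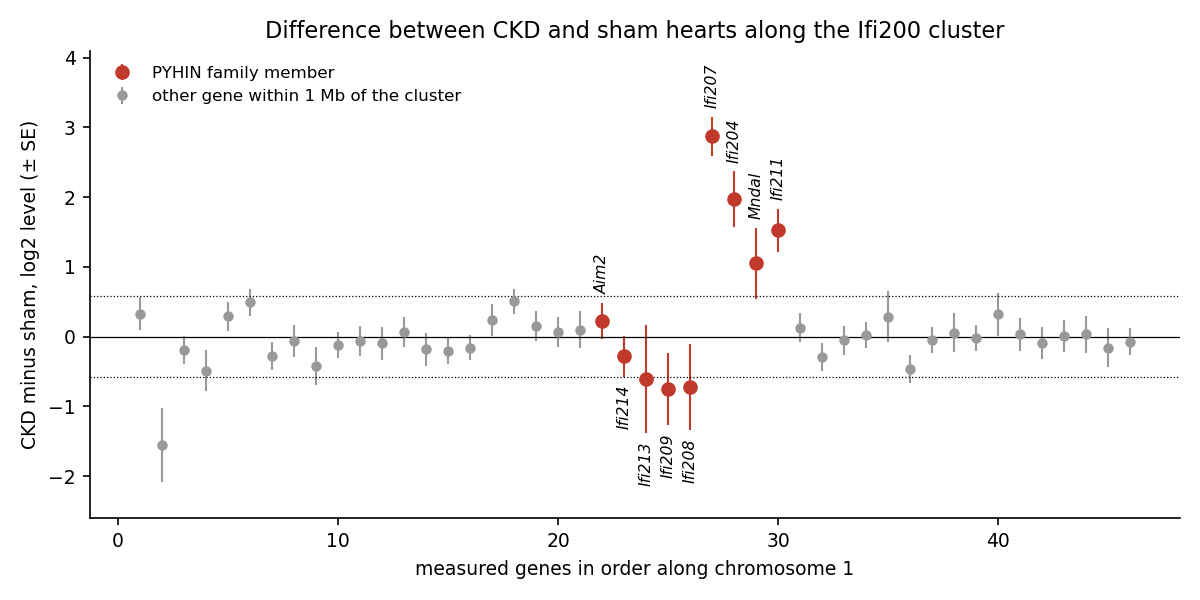
Difference in log2 level between CKD and sham hearts (vertical axis, with standard error bars) for each measured gene in its order along chromosome 1, with family members in red and other genes within 1 Mb in grey. Dotted lines mark a fold change of 1.5, and the 4 members from Ifi207 to Ifi211 stand above the upper line.

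The promoters of some members were closely alike. RefSeq (GRCm38.p6, C57BL/6J) gave 9 promoter windows for 8 members, each running from 250 bases before the start of the transcript to 50 after it, with 2 for Mndal. The windows of Ifi208 and Ifi213 were identical at 98.9% of 285 aligned bases, those of Ifi209 and Ifi214 at 96.0% of 299, and those of Ifi207 and Ifi211 at 88.4% of 294. The other 23 pairs with at least 200 aligned bases had between 66.1% and 82.9%. Most of each window lies outside the transcript, and the transcripts themselves were not compared. Where transcripts of related genes are alike, they can share hybridisation signal. The probe sequences were not used here, and the share of signal that one member gives to the probe set of another was not tested. Windows of 4 members follow, 3 from the brighter set and Ifi208 from the dimmer set, in lower case with each match to the interferon-stimulated response element, GAAANNGAAA on either strand, in capitals.
Ifi207, chr1:173741760-173742059, minus strand: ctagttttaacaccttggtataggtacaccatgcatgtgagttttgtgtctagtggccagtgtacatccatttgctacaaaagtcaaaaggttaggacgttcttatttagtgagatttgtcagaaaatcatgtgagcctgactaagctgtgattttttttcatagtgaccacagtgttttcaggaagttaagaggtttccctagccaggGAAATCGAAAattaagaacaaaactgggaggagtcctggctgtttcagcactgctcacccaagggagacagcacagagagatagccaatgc
Ifi211, chr1:173912997-173913296, minus strand: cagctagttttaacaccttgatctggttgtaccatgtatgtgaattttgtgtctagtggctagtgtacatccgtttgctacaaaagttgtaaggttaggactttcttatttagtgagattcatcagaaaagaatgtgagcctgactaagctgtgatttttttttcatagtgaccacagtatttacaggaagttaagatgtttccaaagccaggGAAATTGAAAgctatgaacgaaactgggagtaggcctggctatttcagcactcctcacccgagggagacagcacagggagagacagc
Mndal, chr1:173880138-173880437, minus strand: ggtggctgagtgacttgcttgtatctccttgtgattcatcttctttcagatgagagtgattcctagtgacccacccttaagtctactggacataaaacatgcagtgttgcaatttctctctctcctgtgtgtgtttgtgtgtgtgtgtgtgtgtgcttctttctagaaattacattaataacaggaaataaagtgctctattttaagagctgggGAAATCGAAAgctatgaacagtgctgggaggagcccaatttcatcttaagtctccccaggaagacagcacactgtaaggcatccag
Ifi208, chr1:173673415-173673714, plus strand: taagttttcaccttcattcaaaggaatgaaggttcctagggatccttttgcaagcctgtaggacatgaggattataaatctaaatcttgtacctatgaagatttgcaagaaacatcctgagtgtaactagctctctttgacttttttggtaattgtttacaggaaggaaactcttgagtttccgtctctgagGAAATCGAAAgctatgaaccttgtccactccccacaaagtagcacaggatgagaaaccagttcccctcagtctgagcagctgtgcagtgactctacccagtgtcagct

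This response element is the sequence that interferon regulatory factors and the STAT complex of type I interferon bind. It was matched in 7 of the 9 windows and in 6 of the 8 members, against 3.44% of 32851 RefSeq promoter windows of the same length. The match began at position −41 from the transcript start in Ifi207, −37 in Ifi211, −36 in the window of Mndal shown and −58 in Ifi208. It was also present in Ifi213 at −73 and in Ifi214 at −79, and these letters were not in the windows of Ifi209 or Aim2. The match thus occurred among members with higher and among members with lower means in CKD. The element of the interferon gamma pathway, TTCNNNGAA, was in 0 of the 9 windows and in 8.3% of all windows. The letters GAGGAA, bound by the myeloid factor PU.1, were in 4 of the 9 windows on either strand and in 28.3% of all windows, and in Ifi208, Ifi213 and Ifi214 they overlapped the response element.

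Genes induced by interferon were set beside the family, since most members belong to them. Of 67 measured interferon-stimulated genes, 7 were lower in CKD hearts and 1 was higher, beside 3.19% and 3.13% of all genes. The rest did not pass the limits, and the median difference over the list was −0.16. The 4 lower genes with the smallest p were Phf11d (−0.95, standard error 0.21), Oas1a (−0.91, standard error 0.24), Trim30d (−0.85, standard error 0.23) and Oas1g (−0.66, standard error 0.20), with adjusted p of 0.336, 0.344, 0.346 and 0.398 from limma. Oas1a and Oas1g belong to the oligoadenylate synthetases, which sense double-stranded RNA. The others were Oas2, Ifitm3 and Cxcl10, and the higher gene was Daxx (0.64, standard error 0.22, adjusted p = 0.448). No gene of the list passed an adjusted p under 0.05. The call on Oas1g was lost without sham replicate 2 (−0.54). The count of lower genes was 20 without CKD replicate 1 and 2 among the brighter 50% of genes, and the median difference was −0.37 without CKD replicate 1 and −0.055 without CKD replicate 2.

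The 4 dimmer members shared with this list their low value on CKD replicate 2. On CKD replicate 2, the mean of the interferon-stimulated genes was 0.53 below its average over the 6 arrays, and it was 0.39 above that average on CKD replicate 1. CKD replicate 2 was the lowest of the 6 arrays for 35 of the 67 genes (52.2%), for Ifi208, Ifi209, Ifi213 and Ifi214, and for 17.9% of all genes. Among the other lists the share ran from 0% of 8 B cell markers to 61.5% of 13 macrophage markers. It was 39.1% for 23 genes of DNA and RNA sensing and 44.4% for 9 endothelial markers. A low value on this array was thus not particular to interferon-stimulated genes. CKD replicate 2 was the lowest for none of Ifi207, Ifi204, Ifi211 and Mndal. The root mean square distance from the mean of the list, over the 6 arrays and after centring each gene, was 0.27 for Ifi214, 0.49 for Aim2, 0.58 for Ifi209, 0.84 for Ifi208 and 0.98 for Ifi213. It was 1.00 for Mndal, 1.06 for Ifi211, 1.34 for Ifi204 and 1.62 for Ifi207. This distance is not scaled, so it grows with the spread of a gene over the arrays, the gap between CKD and sham included, and its order is not read as a result. Among all genes, Ifi213 was nearest to Nxpe4 (0.26), Trim12a (0.30), Rsad2 (0.31), Nxpe2 (0.35) and Ivd (0.36), a comparison added after the values were seen. Of these only Rsad2, an antiviral enzyme, is in the list of interferon-stimulated genes.

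**Figure D3:**
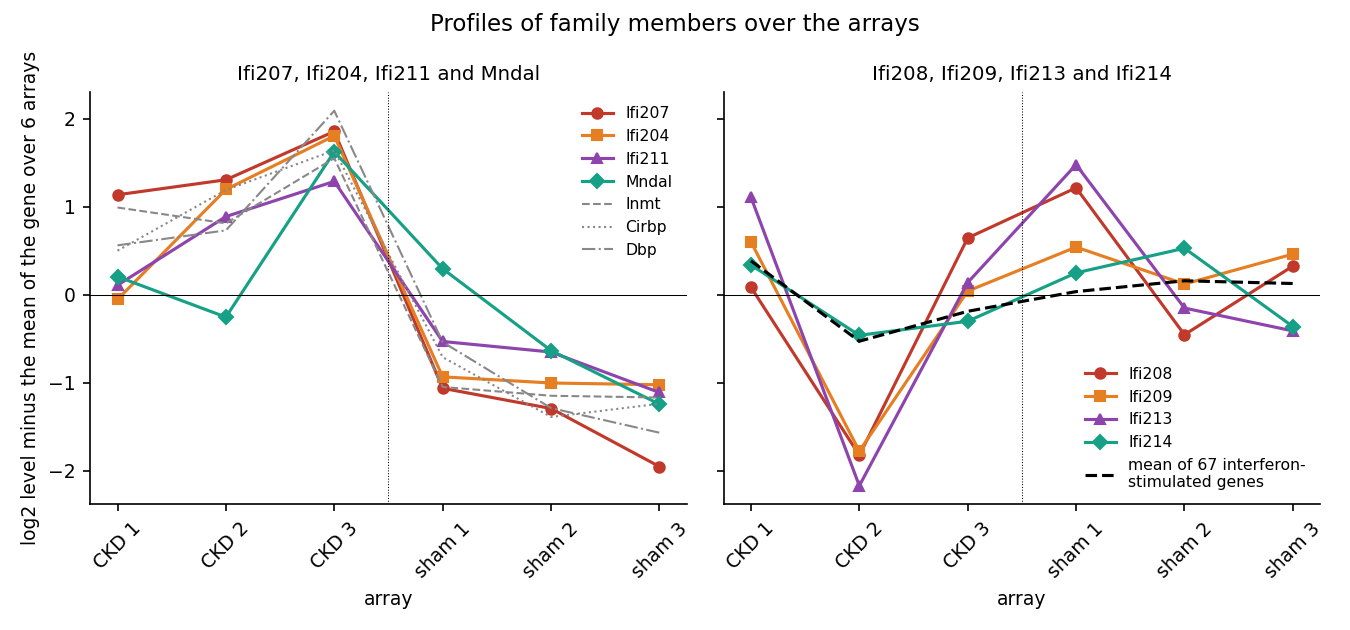
Log2 level of each gene minus its mean over the 6 arrays (vertical axis) on the 3 CKD and the 3 sham arrays (horizontal axis), for the brighter members beside Inmt, Cirbp and Dbp (left) and the dimmer members beside the mean of 67 interferon-stimulated genes (right). Lines join the arrays only to guide the eye. Ifi208, Ifi209 and Ifi213 drop on CKD replicate 2, where Ifi207 and Ifi204 are high.

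By the same distance the 5 genes nearest to Ifi207 were Inmt (0.41), Cirbp (0.43), Dbp (0.44), Hjurp (0.45) and Rbm3 (0.47). Inmt is a methyltransferase of small molecules, Cirbp and Rbm3 are RNA-binding proteins induced by mild cold, Dbp is a transcription factor under the circadian clock, and Hjurp is a chaperone of the centromeric histone. Inmt had log2 levels of 8.05, 7.87 and 8.61 in CKD hearts, against 6.01, 5.91 and 5.89 in sham hearts. Dbp had 13.90, 14.07 and 15.43 in CKD hearts, against 12.80, 12.05 and 11.77 in sham hearts. These genes share with Ifi207 the gap between the groups, and they were picked for that likeness, so it is given with no test. The time of day at which the hearts were taken is not given in the sources used here.

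The nearest genes of Ifi204 were Gabra3 (0.15), Abca6 (0.28), Cirbp (0.31), Ifi211 (0.34) and Entpd1 (0.35). One member, Ifi211, was thus among them, and Ifi207 stood at 0.63 from Ifi204. Abca6 is a lipid transporter, Entpd1 is the ecto-enzyme CD39 of endothelial and immune cells, and Gabra3 is a subunit of the receptor for gamma-aminobutyric acid. Abca6 had log2 levels of 9.81, 10.46 and 11.11 in CKD hearts, against 9.08, 8.50 and 8.37 in sham hearts. Within the family, the closest pairs by this distance were Ifi204 with Ifi211 (0.34) and Ifi208 with Ifi209 (0.49), and the farthest was Ifi207 with Ifi213 (2.05).

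Genes of DNA and RNA sensing at large were examined next, of which only some, such as Sting1, relay signals from PYHIN proteins. Among 23 measured genes of DNA and RNA sensing, 4 were lower and none was higher, beside 3.19% and 3.13% of all genes, with a median difference of −0.26. Sting1, the adaptor that relays signals from cGAS and p204, had log2 levels of 6.62, 6.37 and 6.23 in CKD hearts, against 7.31, 7.54 and 7.32 in sham hearts. The groups did not overlap, as for 6.71% of all genes lower on every CKD array, and the difference was −0.98 (standard error 0.19, adjusted p = 0.330 from limma). Myd88, the adaptor of Toll-like receptors, was lower by a like amount (−0.91, standard error 0.22, adjusted p = 0.336). The helicase Ddx41 (−0.65) and Rnaseh2c, a subunit of the nuclease that clears RNA from DNA (−0.67), had adjusted p of 0.442 and 0.466. Cgas itself, the cytosolic sensor upstream of Sting1, was dim, with 3.91, 4.27 and 4.14 in CKD hearts, against 4.0, 3.85 and 3.90 in sham hearts. Ddx41 no longer passed on leaving out sham replicate 2 or 3 or CKD replicate 3. Rnaseh2c no longer passed with the methods' t-test or on leaving out sham replicate 1 or 2 or CKD replicate 2 or 3. The count of lower genes was 2 without sham replicate 2.

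Inflammasome genes, a list that holds Pycard and Casp1 together with sensors other than Aim2, did not pass the limits in either direction. The count was 0 of 24 beside 6.32% of all genes, with a median difference of −0.19. Pycard, the adaptor, had log2 levels of 4.84, 3.48 and 3.94 in CKD hearts, against 4.27, 4.82 and 4.36 in sham hearts, with CKD replicate 2 again the lowest. Casp1 was at 8.88, 8.02 and 8.13 in CKD hearts, against 8.74, 8.45 and 8.49 in sham hearts (difference −0.22, standard error 0.26, adjusted p = 0.858 from limma). The smallest p of the list belonged to Naip6, a sensor of bacterial protein (−0.56, standard error 0.20, adjusted p = 0.453), and Ninj1, which ruptures the membrane of dying cells (−0.86, standard error 0.39, adjusted p = 0.562). The count of lower genes was 4 without CKD replicate 1, 2 without sham replicate 1 and 1 without sham replicate 3, and the count of higher genes was 1 without CKD replicate 1.

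The regulators of interferon responses did not pass the limits either, 0 of 28 beside the same 6.32%, with a median difference of −0.12. Irf1 is the factor at the centre of the study. Its log2 levels were 8.92, 8.46 and 8.14 in CKD hearts, against 8.39, 8.65 and 8.76 in sham hearts. The difference was −0.09 (standard error 0.24, adjusted p = 0.942 from limma). The study itself measured IRF1 by qPCR and western blot, in hearts that included CKD mice fed high phosphate and in cultured cells. The array values are not set against those measures. Irf9, the DNA-binding part of the complex that acts on the response element, had 6.75, 5.04 and 5.63 in CKD hearts, against 6.07, 6.67 and 6.71 in sham hearts (−0.68, standard error 0.40, adjusted p = 0.665). Stat2, its partner, differed by −0.36 (standard error 0.27) and Irf7 by −0.49 (standard error 0.46). On CKD replicate 2 Irf7, Irf9 and Stat2 were at their lowest. Irf8 of myeloid cells (−0.48, standard error 0.19, adjusted p = 0.482) and the kinase Tyk2 (0.44, standard error 0.20, adjusted p = 0.558) had the smallest p. Irf9 passed without CKD replicate 1, at −1.15, where 5 genes of the list were lower, against 1 each without sham replicate 1 or CKD replicate 2.

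Genes of proteins that PYHIN members are known to bind or act on passed at about the rate of all genes, which was 6.32% in either direction. Of 20 measured, E2f1, a transcription factor of the cell cycle, was lower (−0.64, standard error 0.23, adjusted p = 0.464 from limma), none was higher, and the median difference was −0.04. E2f1 was dim, at 2.31, 2.12 and 2.22 in CKD hearts, against 2.76, 2.5 and 3.30 in sham hearts. The count of lower genes was 4 without sham replicate 1, and 0 with the methods' t-test or on leaving out sham replicate 3 or CKD replicate 2 or 3. On leaving out sham replicate 2 or CKD replicate 2 or 3, 1 gene was higher.

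**Figure D4:**
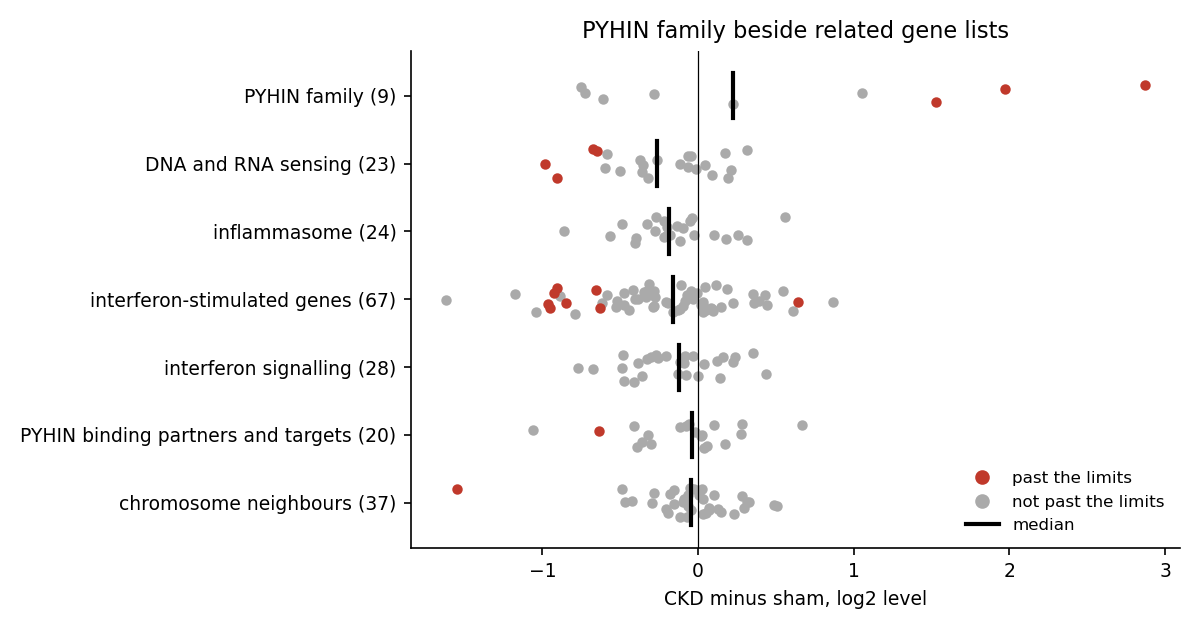
Difference in log2 level between CKD and sham hearts (horizontal axis) for each gene of the PYHIN family and of 6 other lists, with the number of measured genes in brackets, the median as a black bar and genes past the limits in red. The medians of the other lists lay between −0.26 and −0.04, and that of the family was 0.22.

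Markers of other cell types in the same hearts were set beside the family. Of all genes, 3.13% passed the limits as higher and 3.19% as lower, so a single call in a short list is not read as a result. Of 13 macrophage markers, 4 were lower and none was higher in CKD hearts (Adgre1, Fcgr1, C1qb and Cx3cr1), with a median difference of −0.69 and a mean level of 8.07 to 9.13 in CKD hearts against 8.44 to 9.77 in sham hearts. Of 10 markers of monocytes and neutrophils, Chil3 was lower and none was higher, with a mean level of 5.89 to 8.33 in CKD hearts against 5.70 to 8.43 in sham hearts. None of 11 markers of T and NK cells and none of 9 of dendritic cells passed, whereas 1 of 8 of B cells, Jchain, was higher (3.05, standard error 0.75), with a mean level of 3.57 to 4.05 in CKD hearts against 3.10 to 3.47 in sham hearts. None of 9 endothelial markers passed, and Ddr2 was lower and none higher among 9 of fibroblasts. Smooth muscle and pericyte markers had 2 of 10 higher, with a mean level of 9.59 to 10.03 in CKD hearts against 9.21 to 9.49 in sham hearts. Of 3 red cell markers, Alas2 was higher, and 0 of 8 of adipocytes passed with a median of 0.65. The part of any cell type in the levels of the family was not tested. In whole heart RNA, fewer cells of a type and less RNA per cell cannot be told apart.

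The unequal Y-linked levels were set beside the family in the same way. Sham replicate 1 and CKD replicates 1 and 2 had like levels of Eif2s3y, between 4.02 and 4.24. On these arrays alone Ifi207 was at 10.33 and 10.50 in CKD hearts, against 8.13 in the sham heart, a difference of 2.29. Ifi204 differed by 1.51 and Ifi211 by 1.03, whereas Mndal came to −0.32. These 3 arrays were picked after the data were seen and leave 1 sham heart, so the values are a description only.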

How the data were processed

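RNA from 6 mouse hearts, 3 CKD and 3 sham, was labelled from 250 ng of total RNA. For 22206 probe sets the authors deposited log2 levels, made by RMA (a name from the submitters' processing notes, whose version the sources used here do not give), with no detection calls and no filter stated. The median log2 level was 4.83 to 4.86 on every array, and the number of arrays limits the precision. The platform annotation paired 19572 probe sets with 1 gene symbol, 0 with several, and 2634 were unnamed here. The brightest probe set was kept for 55 genes with more than 1, which left 19505 genes. Each of the 9 members had 1 probe set.

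A linear model of limma 3.58.1 (lmFit, then eBayes) in R 4.3.3 set CKD against sham across all genes, without covariates, with Benjamini-Hochberg adjustment over all genes, and the fit was tested on simulated data. At an adjusted p under 0.05, 2 genes passed. The limits, a fold change over 1.5 with p under 0.05, are those of the methods, which name no test for the arrays, so the methods' t-test is their general one. The members and the gene lists were chosen with earlier results of these data known. Named genes are the members, the 4 smallest p among genes of each list past the limits, or the 2 smallest p where none passed, a few fixed regulators, and the 5 nearest profiles of Ifi207 and Ifi204, leaving out predicted genes, receptors of smell, small RNAs and antigen receptor segments. Other list genes past the limits, and the profiles near Ifi213, were named after their values were seen. Promoters were aligned with Biopython 1.88 and figures were drawn with matplotlib 3.10.9. Tried as alternatives were each array left out, the replicate number as a block, array weights, the trend and robust options of eBayes, the methods' t-test, other limits, a mean over probe sets, leaving out the dimmest 25% or 50% of genes, and scaling by cyclic loess, by the median or by a further quantile step. The arrays with like Y-linked levels were added after the data were seen.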

Additional observations from a re-analysis of the deposited data

How the results depend on the processing

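Ifi207 and Ifi204 lay past the limits under every alternative that changed the fit, and Ifi211 under all of them but the arrays with like Y-linked levels. The family count was 3, and 4 with array weights or on leaving out sham replicate 1 or CKD replicate 1 or 2. The added gene was Ifi209, as lower, without CKD replicate 1, and Mndal in the other cases. The count was 1 at an adjusted p under 0.05. These calls on members are a description only, because this contrast had chosen the family, and nothing is read from them. On the arrays with like Y-linked levels Ifi208 stood past the limits as lower, and the median of the family was −0.31. Of all genes 1233 passed the limits. The count was 625 with the methods' t-test, 2051 with array weights, 285 at a fold change over 2, 2 at an adjusted p under 0.05, 543 on the arrays with like Y-linked levels, and between 982 and 2037 with 1 array left out, the highest without CKD replicate 1. Among the median differences of the lists, DNA and RNA sensing lay between −0.27 and −0.15 with 1 array left out. On the arrays with like Y-linked levels the median was −0.0575 for the inflammasome, 0.16 for binding partners and 0.105 for chromosome neighbours. For the neighbours it was 0.085 without the dimmest 25% of genes and −0.46 without the dimmest 50%, where few of them were left. Of interferon-stimulated genes, 7 were lower, against 14 with array weights and 1 on the arrays with like Y-linked levels, and 0 to 3 were higher over all alternatives. Sensing genes that were lower numbered 4, against 2 without sham replicate 2 and 0 on the arrays with like Y-linked levels. Lower genes numbered up to 4 for the inflammasome, 5 for interferon signalling, 4 for binding partners and 2 for neighbours, with at most 1 higher in each of these lists. The study speaks of pairs of sham and CKD mice in a figure caption, and whether same-numbered replicates were such pairs is not stated. The deviations of same-numbered CKD and sham arrays had correlations of −0.18, −0.03 and −0.19. Those of other-numbered arrays lay between −0.162 and 0.245. Deviations centred within 3 arrays constrain such values, so they cannot decide whether the mice were paired. With the replicate block 1201 genes and 3 members passed. The cause of these changes was not tested. The number of arrays limits every value here, and the smallest two-sided p of an exact permutation test with 3 mice a group is 0.1.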
